A study of Mus musculus with 8 samples.

Results

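RNA levels of 10 genes of the epithelial cell junction were measured in the mouse distal colon: 7 claudins (*Cldn2*, *Cldn3*, *Cldn4*, *Cldn7*, *Cldn8*, *Cldn15* and *Cldn23*), occludin (*Ocln*), the scaffold protein ZO-1 (*Tjp1*) and E-cadherin (*Cdh1*). They were chosen by gene symbol, and all 10 are among the 15859 genes of the count table and among the 14371 tested. The samples were bulk RNA-seq libraries of 8 male mice of mixed BALB/c and 129SvEV background, 10 weeks old, in 4 groups of 2 mice. WT mice and *Hsf1* null littermates, which lack the stress-response transcription factor HSF1 in every cell of the body, were either left untreated (day 0) or treated and taken at day 15. Treatment was 1 injection of the carcinogen azoxymethane (AOM, 10 mg/kg) at 8 weeks of age and, from day 7, 5 days of 1.5% dextran sulfate sodium (DSS), an irritant of the colon lining, in the drinking water. The comparisons ask how the junction genes differ between treated and untreated colon, and between the genotypes, before tumors form.

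The tight junction is the seal between neighboring epithelial cells near their luminal surface. Claudins span the membrane and pair with claudins of the next cell: most tighten the seal, while claudin-2 and claudin-15 form channels through which small cations and water pass between cells. Occludin runs along the same strands, ZO-1 links the strands to the actin cytoskeleton, and E-cadherin holds cells together just below, at the adherens junction. In the colon, claudin-3, claudin-4, claudin-7, claudin-8 and claudin-23 are counted among the sealing claudins, and claudin-7 also lies along the lateral membrane.

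The libraries held 2553348 to 12440257 counts, and at day 0 the second mouse of either genotype gave the smallest. Levels are CPM, counts scaled to normalized library sizes. The targeted gene matched the labels: *Hsf1* lay between 36.5 and 50.5 CPM in the 4 WT mice and between 9.09 and 13.96 CPM in the 4 *Hsf1* null mice. All 12 epithelial markers were detected in every library, with a summed level of 11880 to 27604 CPM. Each pair of mice are separate animals, but nothing says that they came from separate litters or cages. In whole tissue, fewer epithelial cells and less RNA per cell cannot be told apart.

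Per kilobase of exon, the junction RNA of the distal colon was mostly *Cldn7*, *Cldn3* and *Cdh1*. Averaged over the 8 mice, the level per kilobase was 435 for *Cldn7*, 404 for *Cldn3* and 211 for *Cdh1*. The other members followed far below, from 36.4 for *Cldn2*, 35.4 for *Cldn4*, 28.7 for *Cldn8*, 28.0 for *Cldn23*, 23.9 for *Tjp1* and 19.4 for *Ocln* down to 14.4 for *Cldn15*. In untreated WT mice *Cldn3* led, at 308 and 616 CPM per kilobase, but its range overlapped that of *Cldn7*, at 257 and 408. From *Cldn23* to *Cldn4*, each of the 6 lower members of that group overlapped its neighbor in the order. In both groups at day 15 *Cldn7* came first and *Cldn3* second, without overlap between the ranges of the pair. *Cldn4* ranked last but 1 in both groups at day 0 and 4th in both groups at day 15.

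**Figure D1:**
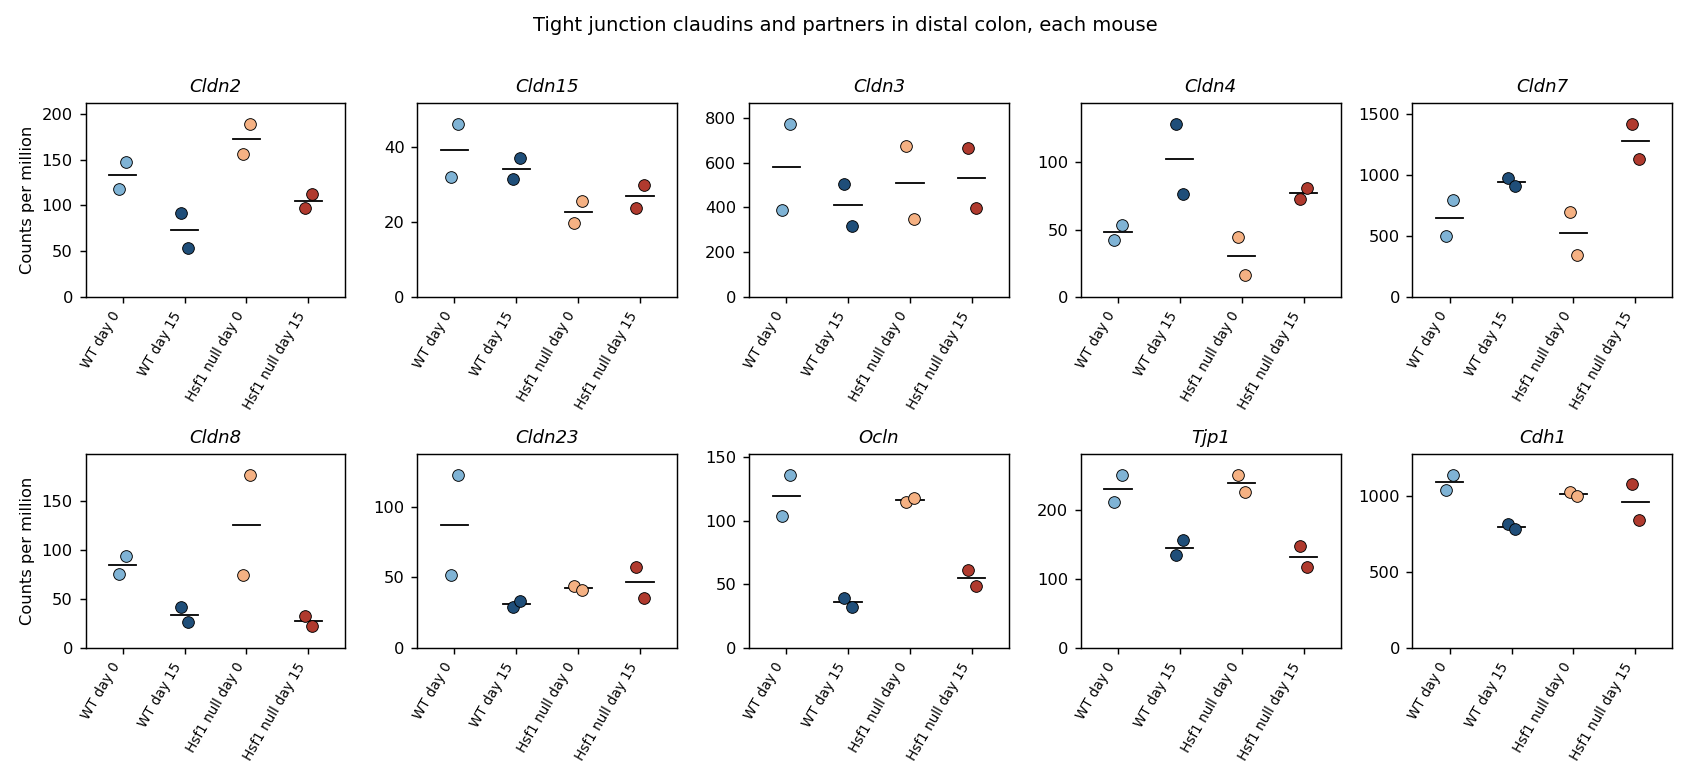
RNA level of each of the 10 genes in CPM, with 1 point per mouse and a line at the mean of the 2 mice of a group; each panel has its own linear axis starting at 0. *Ocln*, *Tjp1*, *Cldn8* and *Cldn2* lie lower in the 4 mice at day 15 than in the 4 mice at day 0, and *Cldn4* and *Cldn7* lie higher.

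Between day 0 and day 15, *Ocln* and *Cldn8* fell and *Cldn4* rose on the mean of both genotypes, while *Cldn3*, *Cldn15* and *Cdh1* passed no threshold. A gene was called when edgeR's quasi-likelihood test gave an adjusted p under 0.05 (Benjamini-Hochberg over all tested genes) and the absolute log2 fold change was above 1. In WT mice 2 of the 10 members were called, both lower, against 7.74% of all tested genes called and 4.27% called lower. In *Hsf1* null colons 2 were called, both lower, against 11.8% of all genes called and 6.48% called lower. On the mean of both genotypes 3 of 10 were called, 1 higher and 2 lower, against 16.4% of all genes, of which 8.04% were higher and 8.32% lower. With so few members, these counts are described and not set against the background. The median log2 fold change of the members was −0.58 in WT mice, −0.01 in *Hsf1* null mice and −0.47 on the mean, beside 0.00, 0.05 and 0.02 over all genes. Every treated mouse lay above every untreated mouse for 2 members and below for 4, where 12.3% and 14% of all genes did so.

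**Figure D2:**
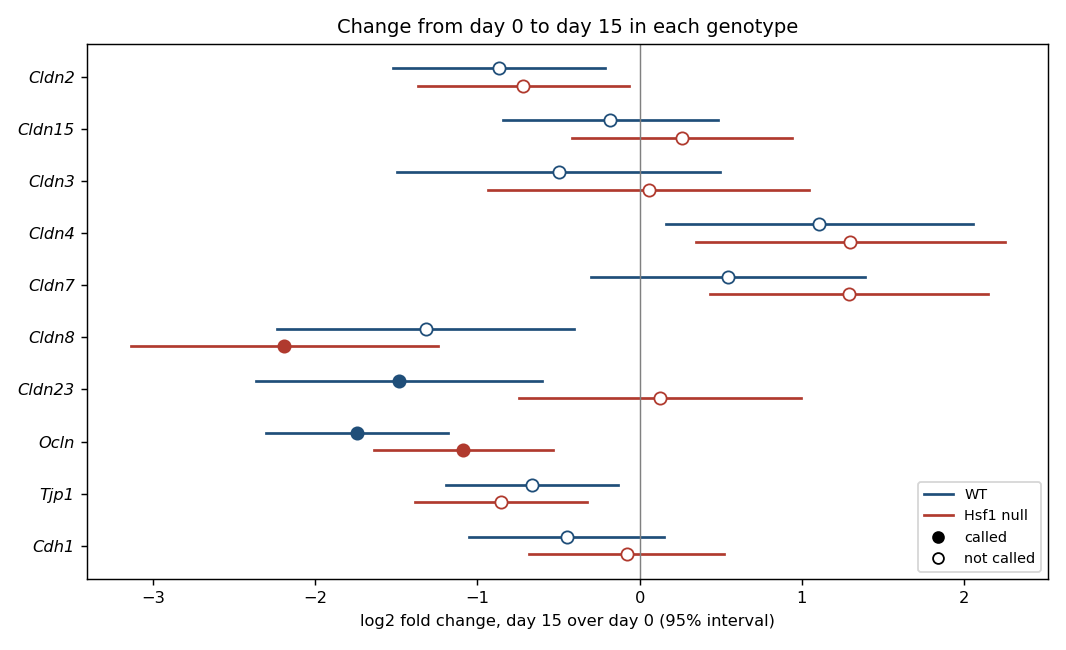
Log2 fold change of each gene from day 0 to day 15 (points) with its 95% interval (lines) in WT mice (blue) and *Hsf1* null mice (red), where filled points passed both thresholds. *Ocln* is filled in both genotypes, *Cldn23* in WT mice alone and *Cldn8* in *Hsf1* null mice alone, and the intervals of the 2 genotypes overlap for every gene.

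Occludin fell in both genotypes. *Ocln* was at 104 and 136 CPM in untreated WT mice and at 39.5 and 32.0 CPM in WT mice at day 15. In *Hsf1* null colons it was at 115 and 118 CPM at day 0 and at 61.0 and 48.8 CPM at day 15. Every mouse at day 15 lay below every mouse at day 0. The log2 fold change was −1.74 (SE 0.25, adjusted p = 0.00772) in WT mice, 3.34-fold lower, and −1.09 (SE 0.25, adjusted p = 0.0257) in *Hsf1* null mice, 2.13-fold lower. On the mean of both genotypes it was −1.41 (SE 0.18, adjusted p = 0.00150), and the call was kept under all 19 alternatives of that comparison, with an adjusted p of at most 0.0420. Within 1 genotype the call depended on single mice: in WT mice the adjusted p became 0.0574 without day 0 replicate 2 and 0.0668 without day 15 replicate 2. In *Hsf1* null colons it became 0.166 without day 0 replicate 2, 0.0594 without day 15 replicate 1 and 0.0885 without day 15 replicate 2.

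ZO-1 and E-cadherin, the scaffold and the neighboring adhesion protein, differed less. *Tjp1* was at 211 and 250.1 CPM in WT mice at day 0 and at 134 and 156 CPM at day 15, and the *Hsf1* null mice were at 251 and 226 and then at 148 and 116 CPM. The day 15 mice lay below the day 0 mice in both genotypes. The log2 fold change on the mean was −0.76 (SE 0.17, adjusted p = 0.0102), 1.69-fold lower and under the fold threshold, as it was in *Hsf1* null mice (−0.85, adjusted p = 0.0440). Both passed it with library sizes scaled to the epithelial markers (−1.02 and −1.41, with adjusted p of 0.00324 and 0.00760). *Cdh1* was at 1043 and 1141 CPM in WT mice at day 0 and at 817 and 782 CPM at day 15. In *Hsf1* null mice it was at 1028 and 1003 CPM at day 0 and at 1078 and 842 CPM at day 15, where the groups overlapped. For *Cdh1* the log2 fold change on the mean was −0.27 (95% interval −0.69 to 0.16, adjusted p = 0.312).

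Set against *Cdh1* in the same library, which needs no scaling between libraries, *Ocln* still lay lower at day 15. The ratio of *Ocln* to *Cdh1*, both per kilobase, ranged from 0.108 to 0.129 in the 4 untreated mice and from 0.0443 to 0.0628 in the 4 treated mice. For *Tjp1* the ratio ranged from 0.118 to 0.143 at day 0 and from 0.0802 to 0.117 at day 15, so that the days lay side by side with hardly a gap. For *Cldn3* the ranges overlapped, 1.26 to 2.47 at day 0 and 1.47 to 2.25 at day 15. They also overlapped for *Cldn2*, 0.155 to 0.260 and 0.0938 to 0.184, although the CPM of *Cldn2* did not. *Cldn8* lay lower at day 15 without overlap, 0.1395 to 0.342 and then 0.0512 to 0.0984. *Cldn7* went the other way: its ratio to *Cdh1* was 0.797 to 1.63 at day 0 and 2.74 to 3.15 at day 15. So did *Cldn4*, at 0.0397 to 0.117 and then 0.171 to 0.397. For *Cldn15* and *Cldn23* the ranges overlapped. These ratios were added after the levels had been seen and were given no test.

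The 2 abundant sealing claudins parted between the days. *Cldn3* was at 388 and 775 CPM in untreated WT mice and at 675 and 347 CPM in untreated *Hsf1* null mice. The treated WT mice had 505 and 317 CPM and the treated *Hsf1* null mice 666 and 398 CPM, and the groups overlapped in both genotypes. Its log2 fold change on the mean was −0.22 (95% interval −0.92 to 0.48, adjusted p = 0.621). The antisense gene *Wbscr25* overlaps the exon of *Cldn3*, is not listed in the count table, and the strand used in counting is not given in the sources used here.

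*Cldn7* was at 502 and 794 CPM in untreated WT mice and at 978 and 913 CPM in treated WT mice. In *Hsf1* null mice it was at 700 and 340 CPM at day 0 and at 1420.2 and 1130.3 CPM at day 15. Treated mice lay above untreated mice in both genotypes. The log2 fold change was 0.55 (SE 0.38, adjusted p = 0.379) in WT mice, 1.29 (SE 0.38, adjusted p = 0.0523) in *Hsf1* null mice and 0.92 (SE 0.27, adjusted p = 0.0297) on the mean, under the fold threshold. On the mean it passed both thresholds under 3 of 19 alternatives, among them leaving out *Hsf1* null day 0 replicate 1 (1.22) or WT day 0 replicate 2 (1.11). In *Hsf1* null mice it passed both under 4 of 20, among them leaving out day 0 replicate 1 (1.90). Within each library the level of *Cldn7* over that of *Cldn3*, per kilobase, was 0.836 and 0.662 in untreated WT mice and 0.670 and 0.633 in untreated *Hsf1* null mice. After treatment it was 1.25 and 1.86 in the WT pair and 1.38 and 1.83 in the *Hsf1* null pair, above 1 in each of the 4.

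*Cldn4*, a sealing claudin that lies 39.3 kb from *Cldn3* on chromosome 5, was the only member called higher. It was at 42.4 and 53.2 CPM in WT mice at day 0 and at 129 and 76.1 CPM at day 15, and the *Hsf1* null mice were at 44.7 and 15.8 and then at 73.1 and 80.9 CPM. The 4 treated mice lay above the 4 untreated mice, and the lowest value came from 44 counts in the library of *Hsf1* null day 0 replicate 2. The log2 fold change on the mean was 1.20 (SE 0.30, adjusted p = 0.0162), 2.30-fold higher. It fell just under the fold threshold without *Hsf1* null day 0 replicate 2 (0.95, adjusted p = 0.0401) and without WT day 15 replicate 1 (0.99, adjusted p = 0.0460). Within WT mice it was 1.11 (adjusted p = 0.127) and within *Hsf1* null mice 1.30 (adjusted p = 0.0692), which became 2.28 (adjusted p = 0.0211) without day 0 replicate 1 and 0.78 (adjusted p = 0.322) without day 0 replicate 2. The neighbor on its other side, *Cldn13*, at 29.6 kb, held 0 to 32 counts in a library and was looked at after the table had been seen.

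*Cldn8*, a sealing claudin of the distal colon, fell in the treated mice. It was at 75.0 and 93.7 CPM in WT mice at day 0 and at 41.4 and 25.9 CPM at day 15. In *Hsf1* null mice it was at 74.3 and 177 CPM at day 0 and at 32.4 and 22.2 CPM at day 15. All treated mice lay below all untreated mice, and *Hsf1* null day 0 replicate 2 stood above the other 3 untreated mice. The log2 fold change was −1.75 on the mean (SE 0.30, adjusted p = 0.00366), 3.37-fold lower, −2.19 in *Hsf1* null mice (SE 0.42, adjusted p = 0.0179) and −1.32 in WT mice (SE 0.41, adjusted p = 0.0748). Without *Hsf1* null day 0 replicate 2 the value in *Hsf1* null mice was −1.45 (adjusted p = 0.153), and without day 15 replicate 2 it was −1.94 (adjusted p = 0.0665). In WT mice the call was reached under 2 of 20 alternatives, among them leaving out *Hsf1* null day 0 replicate 1 (−1.32).

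*Cldn23*, the least studied of these sealing claudins, was called lower in WT mice, but that call was lost under 10 of 20 alternatives. The size of the change rested largely on 1 mouse. It was at 51.8 and 123 CPM in WT mice at day 0 and at 28.8 and 33.0 CPM at day 15, a log2 fold change of −1.48 (SE 0.39, adjusted p = 0.0482). Without WT day 0 replicate 2, the mouse at 123 CPM and 1 of the 2 smallest libraries, it was −0.73 (adjusted p = 0.354). Leaving out either WT mouse of day 15 or either *Hsf1* null mouse of day 0 also ended the call, with values of −1.39 to −1.58 and adjusted p of 0.0780 to 0.174. In *Hsf1* null mice the gene was at 44.0 and 41.0 CPM and then at 57.2 and 35.6 CPM, and the log2 fold change was 0.12 (95% interval −0.75 to 0.99, adjusted p = 0.855).

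The channel-forming claudins were scarce next to *Cldn3* and *Cldn7*. *Cldn2* was at 118 and 148 CPM in WT mice at day 0 and at 92.2 and 53.3 CPM at day 15, and the *Hsf1* null mice were at 157 and 189 and then at 97.3 and 113 CPM. All 4 treated mice lay below all 4 untreated mice. The log2 fold change on the mean was −0.79 (SE 0.21, adjusted p = 0.0192), 1.73-fold lower and under the fold threshold, which it passed without WT day 15 replicate 1 (−1.02, adjusted p = 0.0109). *Cldn15* was at 32.0 and 46.1 CPM in WT mice at day 0 and at 31.2 and 37.0 CPM at day 15, and the *Hsf1* null mice were at 19.5 and 25.5 and then at 23.6 and 29.8 CPM. Its log2 fold change on the mean was 0.04 (95% interval −0.43 to 0.51, adjusted p = 0.904).

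As a share of the summed level of the 7 claudins per kilobase, *Cldn2* and *Cldn15* together made up 7.22% and 5.41% in the untreated WT mice. They made up 5.46% and 11.02% in the untreated *Hsf1* null mice, 4.04% and 4.05% in the treated WT mice and 2.92% and 4.72% in the treated *Hsf1* null mice. Each treated mouse lay below each untreated mouse, but 2 mice against 2 allow no exact two-sided p under 0.333 within a genotype, and no test was made. The share of *Cldn7* was 27.9% to 36.8% in the untreated and 47.8% to 57.0% in the treated mice, and that of *Cldn3* was 44.1% to 52.0% and then 30.5% to 38.2%. The share of *Cldn8* was 3.06% to 4.55% in 3 untreated mice, higher in *Hsf1* null day 0 replicate 2, and between 0.926% and 1.67% in the treated mice. Shares of a sum are bound to each other, so that a larger share of *Cldn7* lowers the rest.

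**Figure D3:**
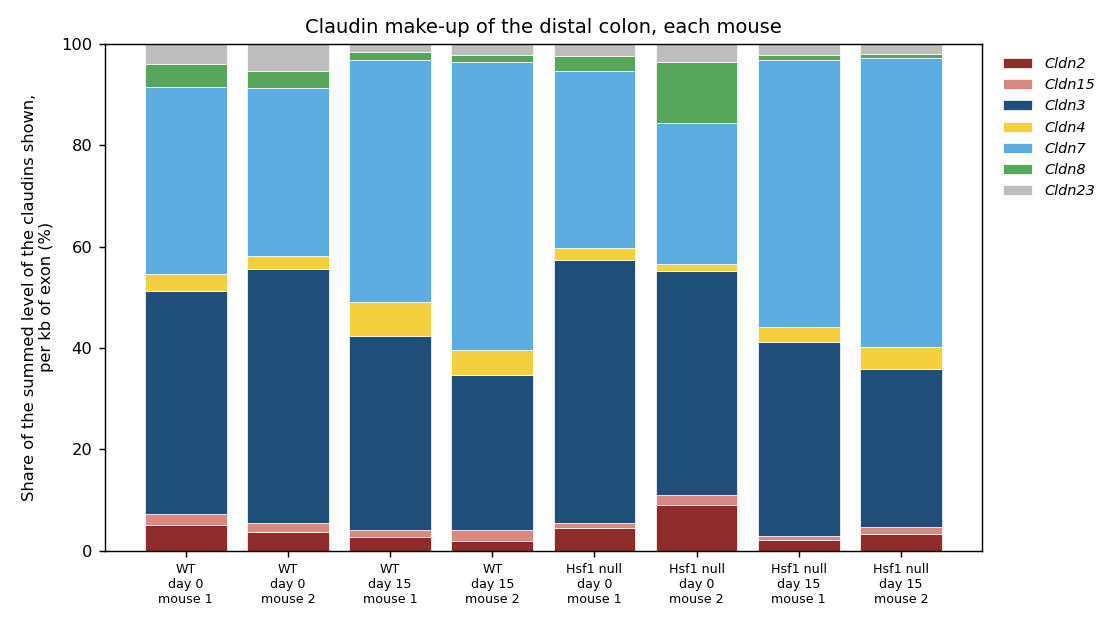
Share of each of the 7 claudins in their summed level per kilobase of exon, in percent, with 1 stacked bar per mouse. The light blue segment, *Cldn7*, takes 27.9% to 36.8% of the bar in the 4 untreated mice and 47.8% to 57.0% in the 4 treated mice.

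To show sequence beside members whose treated mice all lay on one side of the untreated mice, the 250 bases before the transcription start were taken for *Ocln* and *Cldn2*, at lower levels at day 15, and for *Cldn4* and *Cldn7*, at higher levels. Of these, *Ocln* and *Cldn4* were called on the mean, while *Cldn2* and *Cldn7* were under the fold threshold; *Tjp1*, also lower and under it, has a window that is not shown. They come from RefSeq, mouse build GRCm38.p6, the same coordinates as mm10, and 7 of the 10 members had an entry; *Cldn8*, *Cldn23* and *Cdh1* had none. None of the windows shown overlaps an annotated exon, and where a gene had several starts the one furthest upstream is shown. Capitals mark matches on either strand to GAANNTTC or TTCNNGAA, which are 2 facing units of the heat shock element that HSF1 binds, to CAGGTG or its reverse complement CACCTG, an E-box bound by SNAI and ZEB repressors, to TATAAA, or to CCAAT.
*Ocln*, chr13:100552719-100552968, minus strand: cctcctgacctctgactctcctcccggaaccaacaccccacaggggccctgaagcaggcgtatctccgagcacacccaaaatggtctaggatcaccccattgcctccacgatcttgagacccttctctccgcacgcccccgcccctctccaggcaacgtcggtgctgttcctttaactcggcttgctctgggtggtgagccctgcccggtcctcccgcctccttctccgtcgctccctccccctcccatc
*Cldn2*, chrX:139800558-139800807, plus strand: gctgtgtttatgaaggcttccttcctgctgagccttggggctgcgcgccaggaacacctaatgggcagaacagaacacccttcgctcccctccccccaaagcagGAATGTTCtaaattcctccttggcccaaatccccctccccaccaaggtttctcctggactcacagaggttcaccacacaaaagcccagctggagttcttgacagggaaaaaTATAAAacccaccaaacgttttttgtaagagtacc
*Cldn4*, chr5:134946935-134947184, minus strand: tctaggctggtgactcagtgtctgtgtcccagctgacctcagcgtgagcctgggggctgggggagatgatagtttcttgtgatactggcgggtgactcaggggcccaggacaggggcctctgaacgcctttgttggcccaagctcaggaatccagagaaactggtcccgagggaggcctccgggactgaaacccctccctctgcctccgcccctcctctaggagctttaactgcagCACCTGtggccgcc
*Cldn7*, chr11:69964529-69964778, plus strand: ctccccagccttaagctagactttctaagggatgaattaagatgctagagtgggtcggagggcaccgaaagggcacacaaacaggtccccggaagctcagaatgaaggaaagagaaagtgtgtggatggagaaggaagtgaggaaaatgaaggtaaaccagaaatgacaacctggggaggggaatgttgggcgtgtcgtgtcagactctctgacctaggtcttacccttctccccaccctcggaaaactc
The window of *Cldn2* held 1 match to GAANNTTC, whose first base is 146 bases before the start, and 1 to TATAAA, 35 bases before it. That of *Cldn4* held 1 E-box, 14 bases before the start, and the windows shown for *Ocln* and *Cldn7* held none of the motifs. Both genes have a second, downstream start whose window overlaps annotated exons and is not shown: that of *Ocln* held 2 E-boxes and 1 CCAAT, and that of *Cldn7* held 2 E-boxes. Among the 9 windows of the 7 members, 1 held GAANNTTC and 0 held TTCNNGAA. Of 32841 mouse promoter windows of this length, 6.7% held GAANNTTC, 7.17% TTCNNGAA, 17.22% the E-box, 12.37% TATAAA and 33.86% CCAAT. A match describes letters only and is no evidence of binding.

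Between the genotypes no member was called at either day. At day 0 none of the 14371 genes passed, 0% of all genes, in edgeR, where 904 genes had an unadjusted p under 0.05 and DESeq2 called 18. Of the members, *Cldn15* and *Cldn23* had the lowest p, with log2 fold changes of *Hsf1* null over WT of −0.79 (95% interval −1.47 to −0.11) and −1.02 (−1.90 to −0.14) and an adjusted p of 0.775 each. Without WT day 0 replicate 2 the value for *Cldn23* was −0.27 (adjusted p = 0.953). *Ocln* and *Tjp1* differed by −0.03 (95% interval −0.58 to 0.51) and 0.05 (−0.48 to 0.58). The intervals were wider for *Cldn4* (−1.56 to 0.35) and *Cldn8* (−0.34 to 1.47), and a p that misses the threshold does not show that the genotypes are alike.

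At day 15, 0 of 10 members were called against 3.17% of all genes, and the median log2 fold change of *Hsf1* null over WT was 0.32 beside −0.03 over all genes. The lowest adjusted p of a member was that of *Ocln*, 0.173, with a log2 fold change of 0.62 (SE 0.25): 61.0 and 48.8 CPM in *Hsf1* null mice lay above 39.5 and 32.0 CPM in WT mice. The *Hsf1* null mice lay above the WT mice for *Cldn2*, *Cldn7*, *Cldn23*, *Ocln* and *Cdh1* and below for *Cldn15*. Such a gap between 2 pairs of mice was common, as 26.3% of all genes lay higher and 28.6% lower without overlap. The 12 epithelial markers moved along: their median log2 fold change of *Hsf1* null over WT at day 15 was 0.73, 11 of 12 were above 0 and *Phgr1* was called (2.14, adjusted p = 0.0217). When library sizes were scaled to these markers instead, the difference turned for all 5 members that lay higher, to −0.16 for *Cldn2*, −0.26 for *Cldn7*, −0.12 for *Cldn23*, −0.08 for *Ocln* and −0.43 for *Cdh1*, while the median over all genes went from −0.03 to −0.70.

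The change from day 0 to day 15 did not differ between the genotypes by the test of that difference for any member, against 0.00696% of all genes called. The widest gap was that of *Cldn23*, where the change in *Hsf1* null mice exceeded that in WT mice by 1.61 on the log2 scale (SE 0.55, adjusted p = 0.477). Without WT day 0 replicate 2 that gap was 0.87 (adjusted p = 0.909). For *Ocln* the gap was 0.65 (95% interval −0.12 to 1.43, adjusted p = 0.637) and for *Cldn8* −0.87 (95% interval −2.16 to 0.41, adjusted p = 0.702). That *Cldn8* was called in 1 genotype and *Cldn23* in the other is therefore not a shown difference between them.

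Beyond the 10 genes, other parts of the junction were read from lists of genes, which were chosen with earlier results of these data known. Of 16 other claudins 7 are in the count table and 6 were tested, all of low level except *Cldn12*, at 33.6 to 108 CPM. *Cldn1*, a sealing claudin, measured 6.57 and 5.96 CPM in the untreated WT pair and 3.12 and 6.83 CPM in untreated *Hsf1* null mice. The treated WT pair had 10.3 and 5.07 CPM, the treated *Hsf1* null pair only 0.310 and 1.07 CPM. It was called lower in *Hsf1* null mice at day 15 against their day 0 (−2.71, SE 0.74, adjusted p = 0.0412) and against WT mice at day 15 (−3.42, SE 0.71, adjusted p = 0.0371). Those low values rest on as few as 2 counts, and each call was lost under 10 of 20 alternatives, among them leaving out *Hsf1* null day 15 replicate 1 (adjusted p = 0.147 and 0.222). *Cldn9* was called higher on the mean of both genotypes (2.41, adjusted p = 0.0244) from levels of 0 to 3.48 CPM, and was lost without any of 5 single libraries, with an adjusted p of at most 0.0753.

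Among 31 tight junction partners, 2 were called lower in WT mice, 2 higher and 2 lower in *Hsf1* null mice, and 1 higher and 3 lower on the mean of both genotypes. The background for these counts is 7.74%, 11.8% and 16.4% of all genes, so that they are no result about the list. Their median log2 fold change was −0.17 in WT and 0.00 in *Hsf1* null mice. *Cxadr*, an adhesion molecule of the tight junction, also fell in both genotypes: from 237 and 292 CPM to 89.2 and 70.0 CPM in WT mice, and from 257 and 322 CPM to 128 and 108 CPM without *Hsf1*. Its log2 fold change was −1.73 in WT mice (adjusted p = 0.00834), −1.30 in *Hsf1* null mice (adjusted p = 0.0188) and −1.51 on the mean (adjusted p = 0.00143). The call on the mean was kept under all 19 alternatives, and within a genotype it was lost without day 0 replicate 2 (adjusted p = 0.0590 in WT and 0.149 in *Hsf1* null mice) and without some mice of day 15. *Mylk*, the kinase that contracts the actin belt at the junction and is also abundant in smooth muscle, was lower on the mean (−1.03, adjusted p = 0.00382), a call lost under 5 of 19 alternatives. So was the scaffold gene *Magi3* (−1.12, adjusted p = 0.00740), which fell under the fold threshold without *Hsf1* null day 0 replicate 2 (−0.88). Of the genes called higher, *Tjp3*, a ZO-1 relative, rose on the mean (1.02, adjusted p = 0.0105) and in *Hsf1* null mice (1.59, adjusted p = 0.0202), and the polarity gene *Crb3* rose in *Hsf1* null mice (1.14, adjusted p = 0.0442). The calls in *Hsf1* null mice were lost under 4 of 20 alternatives for *Tjp3* and 11 of 20 for *Crb3*, in both cases also without day 0 replicate 2. The call of *Tjp3* on the mean was lost under 9 of 19 alternatives, with a log2 fold change of 0.79 to 1.17.

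Of 12 adherens junction partners, 1 was called lower in WT mice and 1 higher and 1 lower in *Hsf1* null mice, counts too small to set against the 7.74% and 11.8% of all genes. *Pvrl3*, the adhesion molecule nectin-3, was lower in both: 57.3 and 54.0 CPM in untreated WT mice stood against 24.2 and 25.2 CPM in treated ones, and 63.6 and 102 CPM against 29.2 and 38.0 CPM without *Hsf1*. Its log2 fold change on the mean was −1.23 (adjusted p = 0.00344), and its calls were lost under 7 of 20 alternatives in WT mice, 5 of 20 in *Hsf1* null mice and 1 of 19 on the mean. *Pvrl2*, nectin-2, was called higher in *Hsf1* null mice (1.06, adjusted p = 0.0347). That call was lost under 9 of 20 alternatives, among them leaving out day 0 replicate 2 (0.77). The catenins *Ctnnb1*, *Ctnna1* and *Ctnnd1*, partners of E-cadherin, were not called in any comparison.

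Of 20 regulators of epithelial junctions, 1 was called lower in WT mice, 3 higher and 1 lower in *Hsf1* null mice and 3 lower on the mean, against 7.74%, 11.8% and 16.4% of all genes called. The differentiation factor *Klf4* was the one that fell in WT mice, from 577 and 906 CPM at day 0 to 163 and 126 CPM at day 15 (−2.36, SE 0.42, adjusted p = 0.0146). Without WT day 0 replicate 2 the value was −1.98 (adjusted p = 0.0858), and on the mean of both genotypes *Klf4* differed by −1.72 (adjusted p = 0.00385). *Grhl2*, an activator of junction genes, was lower on the mean (−1.29, adjusted p = 0.00695). *Zeb2*, a repressor of E-cadherin, was lower in *Hsf1* null mice (−1.92, adjusted p = 0.0249), where the epithelial factors *Cdx2*, *Ovol2* and *Esrp1* were higher (1.22, 1.19 and 1.10, with adjusted p of 0.0325, 0.0497 and 0.0244). Other epithelial factors of the list were below 0 there and not called, among them *Grhl2* (−1.24, adjusted p = 0.0505) and *Klf4* (−1.08, adjusted p = 0.102). The other SNAI and ZEB genes of the list were above 0 there and not called. These were *Snai2* (1.45, adjusted p = 0.101), *Snai1* (0.65, adjusted p = 0.577) and *Zeb1* (0.01, adjusted p = 0.988). Each of the 4 calls was lost without *Hsf1* null day 0 replicate 2, with an adjusted p of 0.193 for *Zeb2*, 0.236 for *Cdx2*, 0.281 for *Ovol2* and 0.182 for *Esrp1*. At day 15, *Ovol2* and *Esrp1* were also called higher in *Hsf1* null than in WT mice (1.55, adjusted p = 0.0449, and 1.43, adjusted p = 0.0230). In that comparison 1.91% of all genes were called higher. The values were as low as 0.82 and 0.77 under the alternatives, and 9 of 20 ended either call.

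**Figure D4:**
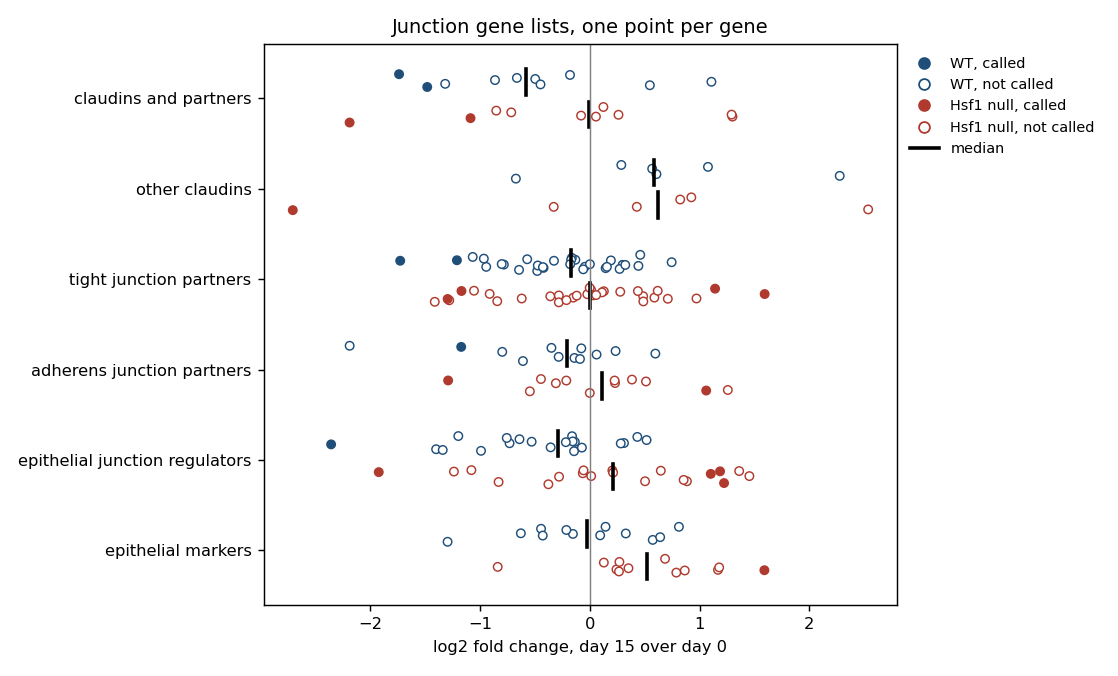
Log2 fold change from day 0 to day 15, with 1 point per gene and a black bar at the median of the list, in WT mice (blue) and *Hsf1* null mice (red); filled points passed both thresholds. The median of the 10 claudins and partners is −0.58 in WT and −0.01 in *Hsf1* null mice, and that of the 12 epithelial markers is −0.03 and 0.52.

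Markers of the cells in the samples moved with the day and the genotype, and their part in the junction values was not tested. No epithelial marker was called lower in any comparison, although *Phgr1* came close in WT mice (−1.30, adjusted p = 0.05003). The summed level of the 12 was 11880 to 18630 CPM in the untreated, 15545 and 17146 CPM in the treated WT and 27604 and 23699 CPM in the treated *Hsf1* null mice. Of 10 markers of surface colonocytes, the absorptive cells at the top of the crypt, the median log2 fold change by day was −1.87 in WT and −0.48 in *Hsf1* null mice, beside 0.00 and 0.05 over all genes. In WT mice 2 were called lower (4.27% of all genes), *Slc26a3* (−3.63, adjusted p = 0.00654) and *Aqp8* (−3.39, adjusted p = 0.0151), and in *Hsf1* null mice 3 (6.48% of all genes), *Slc26a3* (−3.27, adjusted p = 0.0126), *Scnn1g* (−2.99, adjusted p = 0.0207) and *Car1* (−1.88, adjusted p = 0.0377). Their summed level was 3709 to 9658 CPM in the untreated, 1368 and 2199 CPM in the treated WT and 7485 and 3038 CPM in the treated *Hsf1* null mice, and none was at 0. Of 10 stem cell and proliferation markers, 1 was called lower and 1 higher on the mean of both genotypes, against 8.32% and 8.04% of all genes. *Lgr5* was lower (−2.19, adjusted p = 0.00570), from levels of 0.739 to 7.39 CPM. *Top2a* was higher (1.25, adjusted p = 0.00895), but the days overlapped. The median log2 fold change of the 10 was −0.15, with 5 above 0 and 5 below. Of 8 smooth muscle markers 5 were called lower in WT mice, against 4.27% of all genes, and 0 in *Hsf1* null mice, against 6.48%, but for none did the test of the difference in change pass. Of 10 leukocyte markers 2 were called higher in WT mice, against 3.47% of all genes, and 1 in *Hsf1* null mice, against 5.3%. On the mean of both genotypes 4 surface colonocyte and 5 smooth muscle markers were called lower, against 8.32% of all genes, and 5 leukocyte markers higher, against 8.04%. Of 8 fibroblast markers 1 was called lower in *Hsf1* null mice, against 6.48% of all genes, and of 8 endothelial markers none was called by day within a genotype. At day 15, 1 leukocyte and 2 endothelial markers were called lower, and 1 surface colonocyte marker was called higher, in *Hsf1* null than in WT mice, where 1.25% of all genes were called lower and 1.91% higher. The median log2 fold change there was −1.47 for leukocyte, −1.32 for endothelial and −1.09 for fibroblast markers, all of them below 0. It was 0.88 for smooth muscle and 1.19 for surface colonocyte markers, all of them above 0, beside −0.03 over all genes. Of 7 enteric neuron and glia markers 1 was called higher by day in *Hsf1* null mice, against 5.3% of all genes. A single call is no result about so short a list. Replicate 1 of WT day 0 held 3430 CPM of fibroblast markers against 1124 in replicate 2, and 961 against 287 CPM of leukocyte markers.

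Across the 8 mice, the genes most like each member by the correlation of log2 CPM were sought among 9994 genes of at least 10 CPM. *Ocln* went with *Usp28* (r = 0.993) and the chloride channel gene *Ano1* (r = 0.992), and *Cldn8* with *Nxt2* (r = 0.992) and *Pof1b* (r = 0.989). *Cldn7* went with *Ralgds* (r = 0.989), and *Cldn4* with *Phb* (r = 0.993) and *Rab4b* (r = 0.990). *Cldn2* went with *Mettl20* (r = 0.991), *Cdh1* with *Ern2* (r = 0.987), *Cldn3* with *Dnajc4* (r = 0.983) and *Tjp1* with *Ndel1* (r = 0.975). The best match was weaker for *Cldn23* (*Rnf44*, r = 0.937) and *Cldn15* (*Six5*, r = 0.893). The 8 points share the split by day and the libraries' sizes, and the best of so many genes is high by selection, so that these values describe a likeness and nothing more.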

How the data were processed

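The authors aligned the reads of polyA libraries to mm10 with STAR and deposited raw counts per gene symbol. The program that counted reads, its strand setting and the gene annotation are not given in the sources used here. The counts table lists 15859 genes, each with at least 6 counts in some library. A second table of a deposited score, the counts divided by DESeq2 size factors, served to check those factors. The filter on low counts used such factors computed from the raw counts. Each library is 1 mouse, grouped by the genotype and day in its labels; the titles say day 15, whereas the labelled protocol ends right after DSS.

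Differential expression was computed with edgeR 4.0.16 in R 4.3.3 (quasi-likelihood, TMM, 1 model of the 4 groups on all 8 libraries, prior degrees of freedom 5.97). Genes were kept at a mean normalized count over 5 (14371) and entered 6 comparisons, with Benjamini-Hochberg adjustment in each; the thresholds on adjusted p (0.05) and absolute log2 fold change (1) follow the study's methods. SE and 95% intervals come from the same fit. Levels between genes use the exon length in GENCODE M21. On simulated counts for WT day 15 against day 0 (14224 genes), 75 of 100 genes changed by 2 on the log2 scale and 89 of 100 changed by 3 were called, with 17 false calls. DESeq2 1.42.0 was an alternative. The other alternatives were another normalization, no filter, other thresholds, libraries thinned to the smallest, groups compared alone, a replicate block and each library left out. The members and lists were chosen with earlier results of these data known. Genes named are the members, *Hsf1*, called genes of the 4 junction lists, cell type markers and the genes most like each member. Outside this rule, *Cldn12*, *Cldn13*, the catenins, *Snai1*, *Snai2* and *Zeb1* were named after their values were seen, and *Wbscr25* for its overlap with *Cldn3*.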

Additional observations from a re-analysis of the deposited data

Results flagged for a closer look

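The splicing regulator *Esrp1* was singled out because both treated WT mice lay below, and both treated *Hsf1* null mice above, the untreated mice of their genotype. Of all genes, 31.5% lay lower without overlap in WT mice and 31% higher in *Hsf1* null mice. The search covered only the members, *Hsf1*, *Cldn13* and genes of the junction lists already called in a comparison, as *Esrp1* was. The WT change was not called (−0.22, SE 0.24, adjusted p = 0.590). *Esrp1* was at 239 and 259 CPM in WT mice at day 0 and at 233 and 195 CPM at day 15. The *Hsf1* null values were 291 and 246 CPM, then 530.5 and 623 CPM. The change in *Hsf1* null mice exceeded that in WT mice by 1.32 on the log2 scale (SE 0.34), with an adjusted p of 0.386 in edgeR, so that the difference did not pass the test. Groups of 2 mice are too small to look for an outlying mouse.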

How the results depend on the processing

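No result named for a member changed direction while it was called. Of 1180 values of single members under an alternative, 1133 left the combined call as it was, though some crossed 1 of its 2 thresholds, 27 lost the call and 20 gained it. The cause was not tested in any case. Without the 2 smallest libraries (chosen after seeing the data), which leaves 1 mouse in each untreated group, 0 members were called in WT, 0 in *Hsf1* null mice and 1 on the mean of both genotypes, and 4, 0 and 325 genes in all, with 18 between genotypes at day 15 and 0 for the difference in change. With each library left out in turn, 0 to 2 members were called in WT mice, 0 to 4 in *Hsf1* null mice, 2 to 4 on the mean and 0 to 0 in the other 3 comparisons. Over all genes the ranges were 92 to 1336 in WT mice, 0 to 1891 in *Hsf1* null mice and 1271 to 2534 on the mean. They were 0 to 17 between genotypes at day 0, 12 to 873 at day 15 and 0 to 50 for the difference in change. The lone mouse left in a group was then assumed to vary like the other groups.

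DESeq2 called 4 members in *Hsf1* null mice, and 1737 genes in WT mice, 18 and 1208 between genotypes at day 0 and day 15 and 120 for the difference in change. DESeq2 size factors in edgeR, and the fit of only the groups compared, each left 1 member in WT mice; the latter left 6 genes between genotypes at day 15. Without the fold threshold 6 members and 4286 genes passed on the mean. At an adjusted p under 0.01, 1 member and 111 genes passed in WT mice, 0 and 0 in *Hsf1* null mice, 1288 genes on the mean and 12 between genotypes at day 15. For the difference in change 2 genes passed with no filter and 3 after thinning. Scaling to the epithelial markers (added later) gave 4 members in *Hsf1* null mice and 5 on the mean. Over all genes it gave 717 in WT mice, 1 and 1811 between genotypes at day 0 and 15 and 7 for the difference in change. It moved the median of all genes by day from 0.05 to −0.48 in *Hsf1* null mice and from 0.02 to −0.24 on the mean, and the share of higher among called genes from 45.0% to 7.43% and from 49.1% to 25.1%.

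Replicate numbers name different animals, so that they do not pair the mice. The correlation of same-numbered mice was −0.29 to 0.15. With the replicate block 1 member was called in WT mice and 2 genes for the difference in change. With the WT day 0 mice exchanged in the block (added later), 4 members were called in *Hsf1* null mice, with 1856 genes in WT mice, 1314 between genotypes at day 15 and 54 for the difference in change.

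The share of channel-forming claudins depends on the length used. Without division by length its mean at day 0 was 10.97% (WT) and 14.6% (*Hsf1* null) and 6.52% and 6.49% at day 15. With the coding length it was 10.5%, 13.99%, 6.14% and 6.10%. With either mouse of a group left out it ranged from 5.41% to 7.22% and from 5.46% to 11.02% at day 0, and from 4.04% to 4.05% and from 2.92% to 4.72% at day 15. Groups of 2 mice limit the precision of every value, and depth that of genes with few counts.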
